A study of Mus musculus with 12 samples.

Results

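The 10 genes described here carry glucose into the cell and through glycolysis to lactate. They are the glucose transporter gene Slc2a1 and the enzyme genes Hk1, Hk2, Gpi1, Pfkl, Aldoa, Pgk1, Eno1, Pkm and Ldha. They were chosen by symbol as a pathway set, with earlier results of these data known. All 10 were found among the 24421 symbols of the count table. The filter on low counts passed 9 and left out Eno1. The cells were bone marrow stem and progenitor cells of mice, sorted as GFP+ LSK cells (without lineage markers, with Kit and Sca-1 on the surface) from secondary recipients engrafted with cells of 4 genotypes. There were 3 RNA sequencing libraries of each. The group miR146aKO_Runx1mut (labelled miR-146aKO/Runx1S291fsX300) lacked the microRNA miR-146a and carried a frameshift form of the transcription factor Runx1. The group Runx1mut (Runx1S291fsX300) carried the frameshift form alone, and miR146aKO (miR-146aKO, titled Mir-146 KO/Empty) lacked miR-146a alone. The fourth group, wildtype for both (titled Empty), served as the control. The labels do not say what Empty stands for, how the mutant Runx1 was brought in, or whether the 3 libraries of each group are separate animals. A p-value here therefore reflects library-to-library spread, which may be technical.

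Glycolysis splits glucose into pyruvate in the cytosol and yields ATP without oxygen, and lactate dehydrogenase turns pyruvate into lactate to restore NAD+. Quiescent blood stem cells are known for a reliance on glycolysis in the poorly oxygenated marrow, where the factor HIF-1 raises many of these genes. Dividing progenitors and activated immune cells also run the pathway at a high rate, to feed the pentose phosphate pathway and other biosynthesis.

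Total counts per library were 3540043 to 7026393, and lowest in miR146aKO, at 3540043 to 4353971 against 4387524 to 6642886 in wildtype. The microRNA gene Mir146 had 0 counts in 11 libraries, the 6 with intact miR-146a among them, so a 0 there checks no label. It had 14 counts in A031, labelled miR146aKO_Runx1mut, which goes against that label. Libraries are named by the identifier that heads their column, and values stand in the order A001, A031 and A051 for miR146aKO_Runx1mut, A021, A042 and A058 for Runx1mut, A047, A150 and A151 for miR146aKO, and A015, A040 and A053 for wildtype. Runx1 was counted in every library (98.3 to 609 CPM), but counts per gene do not show a frameshift. The LSK gate's Kit, a cytokine receptor, was at 24.6 to 59.7 CPM in miR146aKO and 218 to 436 CPM in wildtype. It was at 164 to 219 CPM in miR146aKO_Runx1mut and 101 to 711 CPM in Runx1mut. Ly6a, which encodes Sca-1, was at 505 to 1019 CPM in miR146aKO and 46.0 to 216 CPM in wildtype. Its values were 12.1 to 121 CPM in miR146aKO_Runx1mut and 20.4 to 222 CPM in Runx1mut. No gene of the gate and stem cell marker list was at 0 in any genotype. In RNA from a sorted pool, fewer cells of a type and less RNA per cell cannot be told apart.

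Set per length, Ldha had the highest level of the 10 genes, at 179.9 CPM per kilobase of exon over the 12 libraries (CPM, counts scaled to library size with TMM factors). Aldoa followed at 102.7, then Gpi1 and Pkm at 81.2 each, Pgk1 at 53.7 and Hk2 at 30.8 CPM per kilobase. Hk1 (14.4), Slc2a1 (11.9) and Pfkl (7.30) lay lower. Aldoa, Pgk1, Pkm and Ldha, which act after the committing kinase Pfkl, were thus measured at higher levels per length than Slc2a1 and Pfkl. Hk1, Hk2 and Gpi1, which act before Pfkl, were too, so the levels did not follow the order of steps. Length here is that of all annotated exons of a gene, merged. Eno1, an enolase, stood at 0.0782 CPM per kilobase.

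Eno1 (chromosome 4, 150236721 to 150248879, plus strand, GRCm38) was almost uncounted, with 0 to 6 counts a library. The sums over 3 libraries were 3 counts in miR146aKO_Runx1mut (95% exact Poisson interval 0.619 to 8.77), 6 in Runx1mut, 9 in miR146aKO (4.12 to 17.1) and 6 in wildtype, and these intervals cover counting error only. Enolase is needed by any cell that runs glycolysis, so these counts give no usable level of Eno1. In the GENCODE transcripts of GRCm38, 49.5% of the 50-base stretches of Eno1 also occurred in another gene, 48.4% in its retrogene Eno1b. Eno1b itself had 14 counts in miR146aKO_Runx1mut, 13 in Runx1mut, 4 in miR146aKO and 33 in wildtype. How reads that match several places were counted is not given in the sources used here.

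Other members shared sequence as well, and the values of those genes can hold reads of their copies or lack reads that were not assigned. The share was 68.0% of 50-base stretches for Pgk1, nearly all of it with the pseudogene Pgk1-rs7, 24.5% for Gpi1, 23.7% for Pkm, 10.4% for Ldha and 6.57% for Aldoa. It was 1.64% for Hk1, 1.56% for Slc2a1, 0.0532% for Pfkl and 0% for Hk2. The last 4 genes are those whose counts are least open to this. Gpi1 also overlaps the non-coding Gm26762 on the other strand over 11.5% of its exon bases, and Pkm overlaps Gm49759 on the same strand over 15.3%. The library kit does not keep the strand.

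**Figure D1:**
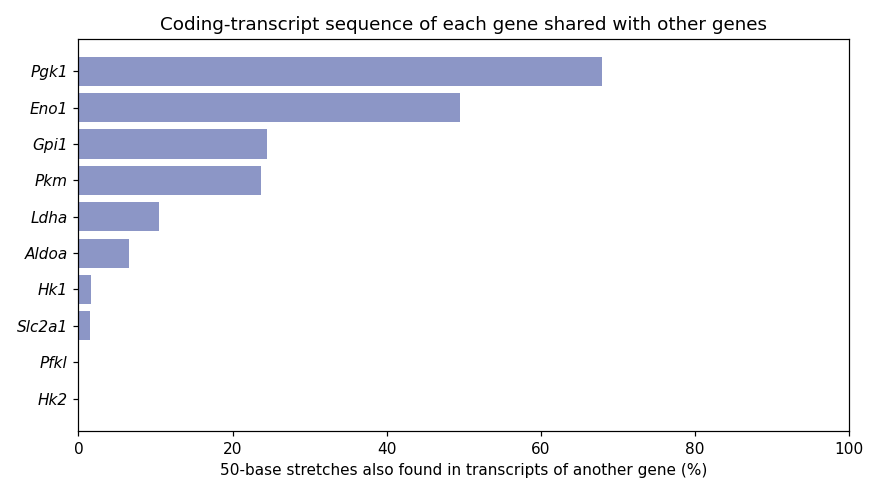
Percent of the 50-base stretches of each gene's coding transcripts (horizontal axis) that also occur, letter for letter, in transcripts of another gene of GENCODE M21. Pgk1 (68.0%) and Eno1 (49.5%) share most, and Hk2 shares none.

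The promoters of 5 members are printed because these genes varied in separate ways over the libraries, as described further on. Slc2a1 and Pfkl went together, Hk2 and Pgk1 each went with Pkm, and Ldha had the highest level per length. Capitals mark ACGTG or GCGTG, the core letters of sites of the hypoxia factor HIF, on either strand. Each window covers 250 bases before and 50 bases after an annotated start, from RefSeq on GRCm38.p6.
Slc2a1, chr4:119108495-119108794, plus strand: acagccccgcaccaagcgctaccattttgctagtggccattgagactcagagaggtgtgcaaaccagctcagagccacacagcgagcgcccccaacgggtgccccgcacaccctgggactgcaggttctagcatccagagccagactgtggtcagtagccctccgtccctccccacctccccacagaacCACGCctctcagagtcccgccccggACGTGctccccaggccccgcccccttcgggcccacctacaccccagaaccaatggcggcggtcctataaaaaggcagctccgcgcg
Pfkl, chr10:78009758-78010057, minus strand: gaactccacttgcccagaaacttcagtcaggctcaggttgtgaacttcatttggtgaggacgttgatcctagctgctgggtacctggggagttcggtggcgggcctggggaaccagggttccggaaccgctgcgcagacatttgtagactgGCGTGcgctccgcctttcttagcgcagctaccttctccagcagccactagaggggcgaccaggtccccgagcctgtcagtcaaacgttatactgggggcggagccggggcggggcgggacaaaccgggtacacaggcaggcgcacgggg
Hk2, chr6:82774405-82774704, minus strand: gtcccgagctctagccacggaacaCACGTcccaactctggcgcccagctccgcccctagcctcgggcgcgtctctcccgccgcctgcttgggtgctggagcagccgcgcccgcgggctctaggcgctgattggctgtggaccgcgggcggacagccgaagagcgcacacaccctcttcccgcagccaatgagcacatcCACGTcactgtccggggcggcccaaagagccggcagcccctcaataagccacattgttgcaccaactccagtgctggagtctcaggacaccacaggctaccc
Pgk1, chrX:106186850-106187149, plus strand: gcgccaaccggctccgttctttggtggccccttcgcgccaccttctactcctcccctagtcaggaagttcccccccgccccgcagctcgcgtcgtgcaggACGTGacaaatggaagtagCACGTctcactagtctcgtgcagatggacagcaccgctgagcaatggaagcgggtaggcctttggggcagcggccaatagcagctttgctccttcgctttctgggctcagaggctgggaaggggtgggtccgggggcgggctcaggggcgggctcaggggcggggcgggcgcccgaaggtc
Ldha, chr7:46845554-46845853, plus strand: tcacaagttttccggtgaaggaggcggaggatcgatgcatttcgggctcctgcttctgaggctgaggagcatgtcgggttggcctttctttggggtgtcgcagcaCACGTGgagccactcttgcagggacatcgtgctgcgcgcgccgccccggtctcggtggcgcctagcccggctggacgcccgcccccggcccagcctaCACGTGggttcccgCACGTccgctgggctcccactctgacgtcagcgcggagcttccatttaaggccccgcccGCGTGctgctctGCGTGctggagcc

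Summed over both strands, the Ldha window held 5 occurrences of ACGTG and 2 of GCGTG, while the Pfkl window held 0 and 1. The Ldha window has 2 stretches of CACGTG, each counted on both strands, so the 5 occurrences lie at fewer places. All 10 genes matched a RefSeq promoter by symbol, with 17 windows in all. Of these, 8 (47.1%) held ACGTG on either strand, against 19.6% of all 32851 windows, and 8 (47.1%) held GCGTG, against 32.4%. By gene, ACGTG occurred in 7 of 10 and GCGTG in 5 of 10. Some windows of Aldoa and of Eno1 overlap and hold the same site, so the windows are not separate. CACGTG, the E-box read by MYC and its partner MAX, contains ACGTG on both strands and occurred in 5.88% of members' windows (Ldha) and 7.15% of all. TGTGGT, the core of RUNX sites, occurred in 17.6% of members' windows (Slc2a1, Hk1 and Hk2) and 16.8% of all. Windows of the members were richer in G and C, with a median of 65.0% against 52.7% over all windows. A match is a description of letters and shows no binding.

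The microRNA that was deleted is printed with its seed, bases 2 to 8, in capitals, since a seed match is the usual mark of a direct target. Its coordinates are chr11:43374435-43374456 on the minus strand.
miR-146a-5p: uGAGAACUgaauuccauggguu
Hk2 site: gatttgtttcaAGTTCTCactgcatagaa

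Of the members, Hk2 alone held the seed's complement AGTTCTC (capitals in the Hk2 line) in the 3′ UTR of its longest coding transcript, which spans 2285 bases. It occurred once there, and in 11% of 20924 coding genes, whose median 3′ UTR spans 936 bases. The Hk2 value in miR146aKO against wildtype was on the lower side, as given next.

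**Figure D2:**
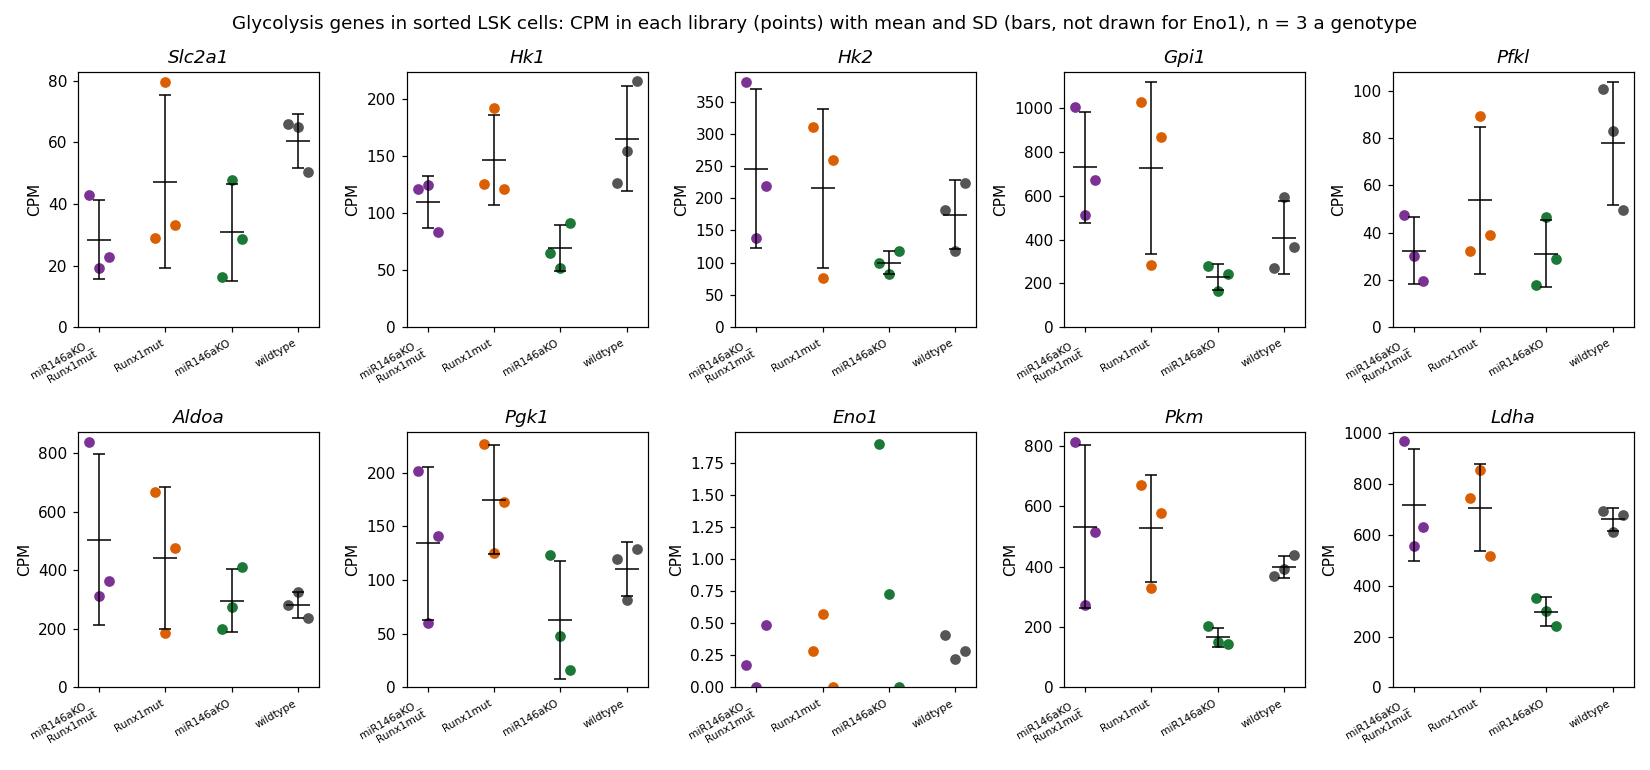
CPM (vertical axes, each from 0) of the 10 genes in each of the 12 libraries (points) by genotype, with mean and SD over 3 libraries as bars except for Eno1. The miR146aKO points lie below all wildtype points for Slc2a1, Hk1, Hk2, Pfkl, Pkm and Ldha.

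Loss of miR-146a alone was compared with wildtype to ask whether the pathway differs without the microRNA. Most of the 9 tested genes lay lower in miR146aKO. Summed over the 10 genes, levels were 1359, 1168 and 1323 CPM in miR146aKO and 2207, 2422 and 2388 CPM in wildtype. As a share of all counts, which uses no TMM factor, the genes took 0.111% to 0.137% in miR146aKO and 0.243% to 0.264% in wildtype. Of the 9 genes, 8 were on the lower side, with 50.1% of 12744 tested genes on that side, and 6 had all 3 miR146aKO libraries below all 3 wildtype libraries, with 10.3% of all genes so placed. The median log2 fold change of the 9 was -0.97, against -0.003 over all genes tested.

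No member passed the test in this comparison. At a Benjamini-Hochberg adjusted p under 0.05, the quasi-likelihood test of edgeR called 0 of 9, with 0.18% of all genes called. An unadjusted p under 0.05 was found for 4 members (Hk1, Pfkl, Pkm and Ldha), against 15.9% of all genes. limma-voom called 0 members, with 76 of 12744 genes called. DESeq2 called 2, Hk1 (adjusted p = 0.0356) and Ldha (adjusted p = 0.0245), with 980 of 19210 genes called.

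Ldha (chromosome 7, 46841475 to 46855627, plus strand) encodes the subunit of lactate dehydrogenase that favours making lactate. It was at 353, 299.8 and 242 CPM in miR146aKO and 694, 609 and 679 CPM in wildtype. Every miR146aKO library was below every wildtype library, with a log2 fold change of -1.15 (SE 0.32, 95% interval -1.84 to -0.46, edgeR adjusted p = 0.121). Pkm (chromosome 9, 59656368 to 59679375, plus strand) encodes the muscle-type pyruvate kinase of the last ATP-yielding step. It was at 203, 152 and 144 CPM in miR146aKO and 368, 392 and 439 CPM in wildtype. The groups did not overlap, and the log2 fold change was -1.27 (SE 0.40, edgeR adjusted p = 0.156).

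The entry to the pathway showed the same order of groups. Slc2a1 (chromosome 4, 119108711 to 119137983, plus strand), which encodes the glucose transporter GLUT1, was at 16.4, 47.7 and 28.5 CPM in miR146aKO and 66.1, 64.8 and 50.4 CPM in wildtype (log2 fold change -0.97, SE 0.58, edgeR adjusted p = 0.445). Library A150 lay just under the lowest wildtype library, A053. Hk1 (chromosome 10, 62268855 to 62379908, minus strand), the hexokinase expressed in most tissues, was at 65.1, 51.8 and 91.0 CPM in miR146aKO and 126, 154 and 215 CPM in wildtype. Its log2 fold change was -1.25 (SE 0.38, 95% interval -2.07 to -0.43, edgeR adjusted p = 0.147). Hk2 (chromosome 6, 82725025 to 82774454, minus strand), the inducible hexokinase, was at 100.2, 83.0 and 118 CPM in miR146aKO and 182, 118 and 224 CPM in wildtype. The highest miR146aKO and the lowest wildtype library nearly met at 117.6 and 117.9 CPM, and the log2 fold change was -0.80 (SE 0.50, edgeR adjusted p = 0.475).

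Pfkl (chromosome 10, 77986947 to 78010083, minus strand), the liver-type phosphofructokinase that commits sugar to glycolysis, was at 18.0, 46.5 and 28.97 CPM in miR146aKO and 100.7, 83.0 and 49.7 CPM in wildtype (log2 fold change -1.32, SE 0.57, edgeR adjusted p = 0.281). The groups were apart, by a narrow gap between A150 and A053. Gpi1 (chromosome 7, 34201330 to 34230336, minus strand), which interconverts glucose and fructose phosphates, averaged 229 ± 59.3 CPM in miR146aKO and 409.7 ± 167 CPM in wildtype (SD, n = 3 each), and the groups overlapped (log2 fold change -0.84, SE 0.47, edgeR adjusted p = 0.410). Pgk1 (chromosome X, 106187100 to 106203699, plus strand), a kinase that yields ATP, was at 124, 48.2 and 16.6 CPM in miR146aKO and 119, 81.7 and 129 CPM in wildtype, so A047 lay within the wildtype range (edgeR adjusted p = 0.566). Aldoa (chromosome 7, 126795234 to 126800751, minus strand), an aldolase of muscle and of red blood cells, did not show this order. It was at 199, 276 and 411 CPM in miR146aKO and 281, 324 and 237 CPM in wildtype. Its log2 fold change was 0.07 (SE 0.48, 95% interval -0.96 to 1.11, edgeR adjusted p = 0.964).

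**Figure D3:**
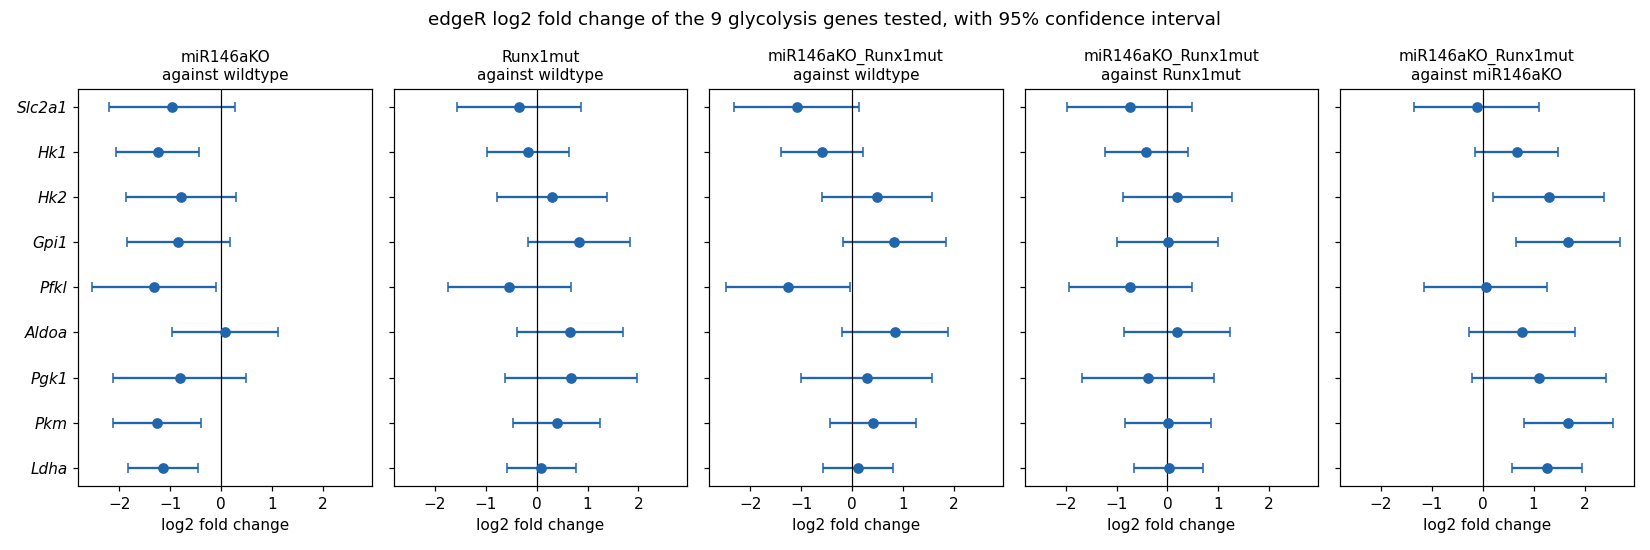
Log2 fold changes of the 9 tested genes (points) with 95% intervals (lines) from edgeR, by comparison. In miR146aKO against wildtype 8 of 9 points lie below 0, and in miR146aKO_Runx1mut against miR146aKO 8 of 9 lie above 0.

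Markers of mature blood cells and the depth of the libraries moved with this comparison, and their part in it was not tested. Sides are counted, here and below, over markers that passed the low-count filter, while sums cover all listed markers. The filter passed 10 of 13 erythroid, 4 of 7 dendritic, 4 of 8 mast and basophil and 9 of 10 stromal and endothelial markers. Of 10 B lineage markers, 10 were on the higher side in miR146aKO and 1 was called. Their summed level was 5365 to 10968 CPM in miR146aKO and 28.0 to 503 CPM in wildtype, where Pax5, a factor that defines B cells, was at 0. Of 12 monocyte and macrophage markers 12 were on the higher side with 0 called (945 to 10694 CPM in miR146aKO, 330 to 686 CPM in wildtype), and of 10 T and NK markers 8 were on the higher side with 1 called (261 to 1774 CPM in miR146aKO, 83.3 to 366 CPM in wildtype, where Gzma was at 0). All 9 megakaryocyte markers were on the lower side (117 to 143 CPM in miR146aKO, 355 to 2244 CPM in wildtype), as were 9 of 11 gate and stem cell markers (863 to 1674 CPM in miR146aKO, 1738 to 3292 CPM in wildtype). Stromal and endothelial markers summed to 59.4 to 700.3 CPM in miR146aKO and 54.6 to 92.7 CPM in wildtype, where Col1a1 and Cdh5 were at 0. Ranges overlapped for erythroid (145 to 479 CPM in miR146aKO, 201 to 479 CPM in wildtype), dendritic (88.8 to 190 CPM in miR146aKO, 40.6 to 210 CPM in wildtype), neutrophil (4048 to 12315 CPM in miR146aKO, 2390 to 28907 CPM in wildtype) and mast and basophil markers (6.78 to 44.6 CPM in miR146aKO, 13.1 to 154 CPM in wildtype). Y-linked genes also differed, at a mean of 24.8 to 60.4 CPM in miR146aKO and 0.137 to 7.99 CPM in wildtype. With the Y-linked level as a covariate the members' median log2 fold change was -0.74, with 7 members on the lower side and 2 on the higher. In that edgeR fit 1 member had an unadjusted p under 0.05, against 4 without the covariate. The smallest edgeR adjusted p of a member was 0.516, against 0.121 without the covariate.

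The double genotype was then set against miR146aKO, which asks what the Runx1 mutation does in cells without miR-146a. Most members lay higher with the mutation. The summed level of the 10 genes was 4420, 2023 and 2666 CPM in miR146aKO_Runx1mut and 1359, 1168 and 1323 CPM in miR146aKO, so the groups did not overlap. Of 9 tested genes, 8 were on the higher side, with 49.6% of all genes there. In 4 of them (Hk2, Gpi1, Pkm and Ldha) the 3 double-genotype libraries lay above the 3 miR146aKO libraries, with 9.45% of all genes so placed. The median log2 fold change was 1.10, against -0.009 over all genes, and 0.68 without A001 or 1.42 without A031, the library whose Mir146 counts go against its label.

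Again no member was called by edgeR (0 of 9, with 0.0157% of all genes called), and 4 had an unadjusted p under 0.05, with 14.8% of all genes. limma-voom called 0 members, with 12 of 12744 genes called. DESeq2 called 3 (Gpi1, adjusted p = 0.0434, Pkm, adjusted p = 0.0109, and Ldha, adjusted p = 0.0170), with 786 of 19210 genes called. With no count filter edgeR called 2 (Gpi1, adjusted p = 0.0135, and Pkm, adjusted p = 0.0129), with 549 of 19210 genes called. Pkm was at 811, 272 and 513 CPM in miR146aKO_Runx1mut and 203, 152 and 144 CPM in miR146aKO. All of the double-genotype libraries were higher, A031 by the least, with a log2 fold change of 1.68 (SE 0.41, edgeR adjusted p = 0.119). Gpi1 was at 1008, 510.4 and 672 CPM in miR146aKO_Runx1mut and 279.7, 164 and 243 CPM in miR146aKO. The gap between groups exceeded the range within miR146aKO, and the log2 fold change was 1.68 (SE 0.48, edgeR adjusted p = 0.152).

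Ldha was at 967, 557 and 629 CPM in miR146aKO_Runx1mut and 353, 299.8 and 242 CPM in miR146aKO, without overlap (log2 fold change 1.27, SE 0.32, edgeR adjusted p = 0.120). Hk2 was at 381, 138 and 219 CPM in miR146aKO_Runx1mut and 100.2, 83.0 and 118 CPM in miR146aKO (log2 fold change 1.29, SE 0.51, edgeR adjusted p = 0.259). Slc2a1 and Pfkl did not share this. Slc2a1 averaged 28.3 ± 12.9 CPM in miR146aKO_Runx1mut and 30.9 ± 15.8 CPM in miR146aKO (log2 fold change -0.12, SE 0.57), and Pfkl averaged 32.4 ± 14.1 CPM in miR146aKO_Runx1mut and 31.1 ± 14.3 CPM in miR146aKO (0.06, SE 0.56; SD, n = 3 each). The 95% intervals were wide, from -1.35 to 1.10 for Slc2a1 and from -1.15 to 1.26 for Pfkl. Hk1 (log2 fold change 0.66, SE 0.38), Aldoa (0.77, SE 0.49) and Pgk1 (1.10, SE 0.61) were on the higher side with overlapping libraries (edgeR adjusted p = 0.424 to 0.482).

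Marker lists differed between these groups as well. All 10 B lineage markers were on the lower side in miR146aKO_Runx1mut (61.5 to 409 CPM, against 5365 to 10968 CPM in miR146aKO), with 0 called, and 9 of 10 T and NK markers were too, with 1 called (57.7 to 656 CPM in miR146aKO_Runx1mut, where Cd3g, Cd8a and Gzma were at 0, and 261 to 1774 CPM in miR146aKO). Monocyte and macrophage markers were on the lower side in 11 of 12 (1264 to 7044 CPM in miR146aKO_Runx1mut, 945 to 10694 CPM in miR146aKO). Of 13 neutrophil markers 8 were on the higher side, with a median log2 fold change of 0.14, and their sums were 13688 to 60537 CPM in miR146aKO_Runx1mut and 4048 to 12315 CPM in miR146aKO. All 9 megakaryocyte markers were on the higher side (median 3.89), with 0 called and 7 at an unadjusted p under 0.05. They summed to 19.6 to 2602 CPM in miR146aKO_Runx1mut and 117 to 143 CPM in miR146aKO. All 4 tested mast and basophil markers, of 8 listed, were on the higher side too (100.1 to 434 CPM in miR146aKO_Runx1mut, 6.78 to 44.6 CPM in miR146aKO). So were 9 of 10 tested erythroid markers, of 13 listed (379.5 to 1131 CPM in miR146aKO_Runx1mut, 145 to 479 CPM in miR146aKO), with 0 called of either list. Of 11 gate and stem cell markers 5 were on the higher side and 6 on the lower, with 0 called. They summed to 359 to 1584 CPM in miR146aKO_Runx1mut and 863 to 1674 CPM in miR146aKO. The part of these lists in the members' values was not tested.

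The Runx1 mutation on its own gave no member that stood apart from wildtype. Of 9 tested genes 0 were called by edgeR, with 0% of all genes called, and 0 had an unadjusted p under 0.05, with 5.52% of all genes. DESeq2 and limma-voom called 0 members as well. No member separated the groups, while 5.72% of all genes lay above and 6.41% below. Gpi1 had the widest difference, at 1030, 285 and 868 CPM in Runx1mut and 269, 595 and 365 CPM in wildtype (log2 fold change 0.83, SE 0.47, edgeR adjusted p = 0.961). Library A042 lay at the foot of that range, beside the lowest wildtype library. The median log2 fold change was 0.30. It became 0.64 without A042, 0.47 without A053, 0.0506 without A040 and 0.0437 without A021. All 13 neutrophil markers were on the higher side in Runx1mut and 9 of 11 gate and stem cell markers on the lower side, with 0 called, and their part was not tested.

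Library A042 set the spread of Runx1mut for most members. Among the 12 libraries it ranked first for Slc2a1 (79.7 CPM), second for Pfkl (89.5 CPM), Hk1 (191 CPM) and Ldha (853 CPM), and last for Hk2 (76.5 CPM) and Aldoa (186 CPM). The other Runx1mut libraries had Hk2 at 309.9 and 259 CPM and Slc2a1 at 28.9 and 33.2 CPM. The count ratio of Hk2 to Hk1 was 0.400 in A042 and 2.47 and 2.14 in A021 and A058. In miR146aKO_Runx1mut the ratio was 3.15, 1.11 and 2.63, in miR146aKO 1.54, 1.60 and 1.29, and in wildtype 1.44, 0.765 and 1.04. The libraries with a mutant Runx1 other than A042 and A031 thus had more than 2 Hk2 counts for each Hk1 count, and no other library reached that.

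**Figure D4:**
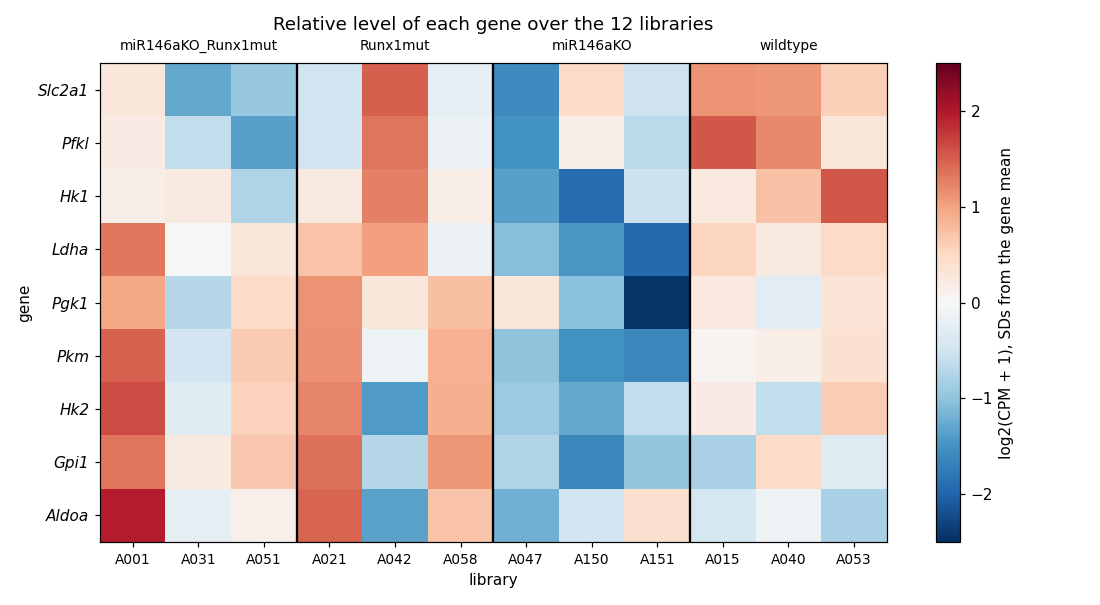
Log2 level of each tested gene in each library, in SDs of that gene from its mean over the 12 libraries (colour), with the genotypes side by side. Colours are scaled per gene and are not fold changes. The miR146aKO libraries are low for most rows, and A042 of Runx1mut is high for Slc2a1, Pfkl and Hk1 and low for Hk2 and Aldoa.

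Against wildtype, the double genotype stood apart for 3 genes of the early steps, but not for Hk2 and Gpi1, which also act there. The 3 libraries of miR146aKO_Runx1mut lay below the 3 of wildtype for Slc2a1, Hk1 and Pfkl, with 7.17% of all genes so placed, and above for 0 of the 9, with 6.32% of all genes so placed. Slc2a1 was at 43.1, 19.2 and 22.8 CPM in miR146aKO_Runx1mut and 66.1, 64.8 and 50.4 CPM in wildtype (log2 fold change -1.09, SE 0.58, edgeR adjusted p = 0.587). Pfkl was at 47.5, 30.03 and 19.6 CPM in miR146aKO_Runx1mut and 100.7, 83.0 and 49.7 CPM in wildtype (log2 fold change -1.26, SE 0.57, edgeR adjusted p = 0.517). For both genes A001 was the highest of the double genotype and A053 the lowest wildtype library. Hk1 had a log2 fold change of -0.59 (SE 0.38, edgeR adjusted p = 0.644). Hk2 and Gpi1 were on the higher side, with overlapping libraries. Hk2 averaged 246 ± 124 CPM in miR146aKO_Runx1mut and 174 ± 53.3 CPM in wildtype. Gpi1 averaged 730 ± 254 CPM in miR146aKO_Runx1mut and 409.7 ± 167.5 CPM in wildtype (SD, n = 3 each).

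In that comparison edgeR called 0 of 9 members, with 0% of all genes called, and 1 member (Pfkl) had an unadjusted p under 0.05, with 9.42% of all genes. DESeq2 and limma-voom called 0. Of 12 monocyte and macrophage markers 12 were on the higher side in miR146aKO_Runx1mut (1264 to 7044 CPM, against 330 to 686 CPM in wildtype) and of 11 gate and stem cell markers 9 were on the lower side (359 to 1584 CPM, against 1738 to 3292 CPM in wildtype), with 0 called of either. All 13 neutrophil markers (median log2 fold change 1.49) and 9 of 10 erythroid markers (median 3.90) were on the higher side too, with 0 called. The part of these lists in the result was not tested. The members' median log2 fold change was 0.29, with 6 on the higher side (51.3% of all genes were), and it was -0.13 without A001, 0.03 without A040 and 0.64 without A031. Ldha and Pkm, the genes at the end of the pathway, overlapped: Ldha was at 718 ± 219 CPM in miR146aKO_Runx1mut and 661 ± 45.5 CPM in wildtype, and Pkm at 532 ± 270 CPM in miR146aKO_Runx1mut and 400.0 ± 36.2 CPM in wildtype (SD, n = 3 each).

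The double genotype and Runx1mut alone were not told apart by any member. No tested gene separated them, with 3.85% of all genes above and 5.42% below, and edgeR called 0 of 9, with 0% of all genes called and 0 members at an unadjusted p under 0.05 (4.63% of all genes). DESeq2 and limma-voom called 0 members too. Log2 fold changes ran from -0.74 (Slc2a1) to 0.19 (Hk2), with a median near 0 (0.01) that became -0.43 without A001 and 0.18 without A031. The 95% interval ran from -1.96 to 0.49 for Slc2a1 and from -0.66 to 0.71 for Ldha. Marker lists did differ between these groups. In miR146aKO_Runx1mut 12 of 12 monocyte and macrophage markers (median log2 fold change 2.53) and 10 of 10 erythroid markers (median 4.84) were on the higher side. On the lower side were 8 of 10 T and NK markers and 8 of 11 gate and stem cell markers. Of these lists 0 were called, and their part was not tested.

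The interaction asks whether the Runx1 mutation had another effect without miR-146a than with it. It is the log2 difference of miR146aKO_Runx1mut from miR146aKO minus that of Runx1mut from wildtype. It was positive for 9 of 9 tested genes, with 50.9% of all genes positive, and its median was 0.84. No member was called by edgeR (0.0235% of all genes were), DESeq2 or limma-voom, and 2 had an unadjusted p under 0.05 (Pkm, 1.28, SE 0.56, edgeR adjusted p = 0.493, and Ldha, 1.17, SE 0.45, edgeR adjusted p = 0.452), with 9.46% of all genes. The median was 0.53 without A001. With the Y-linked covariate it was 0.17, and 5 of 9 members were positive. The comparisons that make up the interaction share libraries with those above, so its direction adds no separate evidence.

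Averaged over both backgrounds, the mutation and the loss of the microRNA pointed opposite ways for most members. Both averages hold the miR146aKO group, where most members were low, so they are not separate results. For the loss of miR-146a, the members' median log2 fold change was -0.97 with intact Runx1 and 0.01 with mutant Runx1. For the mutation it was 0.30 with miR-146a and 1.10 without it. Across the 6 libraries with mutant Runx1 against the 6 without, Gpi1 had a log2 difference of 1.25 (SE 0.33, edgeR adjusted p = 0.173) and Pkm 1.04 (SE 0.28, edgeR adjusted p = 0.181). The unadjusted p of Hk2 (0.80, SE 0.36) and Ldha (0.68, SE 0.23) was also under 0.05, as for 12.6% of all genes. By edgeR 0 of 9 members were called, with 0.0942% of all genes called, and by limma-voom 0. DESeq2 called 2 members, with 488 of 19210 genes called, and edgeR with no filter 2, with 460 of 19210 genes called. The members were Gpi1 and Pkm each time. Across the 6 libraries without miR-146a against the 6 with it, Hk1 (-0.83, SE 0.27), Pfkl (-1.02, SE 0.40), Pkm (-0.63, SE 0.28) and Ldha (-0.56, SE 0.23) had an unadjusted p under 0.05, as did 11.8% of all genes. In that comparison edgeR, DESeq2 and limma-voom called 0 of 9 members, with 0.4% of all genes called by edgeR. Marker lists differed here too, and their part was not tested. In the libraries without miR-146a, 12 of 12 monocyte and macrophage markers (2 called) and 10 of 10 B lineage markers (2 called) were on the higher side. So were 9 of 10 erythroid markers (1 called) and 7 of 9 stromal and endothelial markers (1 called), while all 4 tested mast and basophil markers were on the lower. In the libraries with mutant Runx1, 12 of 13 neutrophil, 8 of 9 megakaryocyte and 4 of 4 mast and basophil markers were on the higher side, and 10 of 10 T and NK and 9 of 10 B lineage markers on the lower, with 0 called.

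The order of the genotypes was read from the members' mean log2 CPM. It was 6.61 ± 0.06 in miR146aKO, 7.54 ± 0.56 in miR146aKO_Runx1mut, 7.72 ± 0.21 in Runx1mut and 7.60 ± 0.01 in wildtype (SD, n = 3 each). Libraries of miR146aKO lay between 6.55 and 6.65, under all 9 others. The remaining genotypes overlapped, with miR146aKO_Runx1mut running from 7.08 to 8.16, a range that held every Runx1mut and wildtype library.

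Over the 12 libraries some members went up and down together, given here as descriptions without a test. The libraries share genotype and depth differences, and genes of 1 library are not independent. Slc2a1 and Pfkl had a Spearman correlation of 0.965. Taken as differences from each genotype's mean, their Pearson correlation was 0.914. Pkm correlated with Pgk1 at 0.909 (0.721 within genotypes), with Gpi1 at 0.902 (0.757) and with Hk2 at 0.874 (0.832). Hk1 correlated with Pfkl at 0.706 and with Slc2a1 at 0.643, but within genotypes at 0.132 and 0.14. The lowest values were those of Slc2a1 with Aldoa (-0.266) and Pfkl with Aldoa (-0.217). The median of the 36 pairs was 0.469, and 0.0556 within genotypes. Slc2a1 and Pfkl share little sequence with copies, while Pkm, Pgk1 and Gpi1 share more.

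The other genes of glucose use lay on both sides of wildtype in miR146aKO. Of 22 tested genes for other transporters and glycolytic enzymes, 12 were on the higher side and 10 on the lower in miR146aKO against wildtype, with a median log2 fold change of 0.13. Their mean log2 CPM was 3.43 in miR146aKO and 3.32 in wildtype, against 6.61 and 7.60 for the members. Genes with few counts weigh as much in this count and median as the rest. Tpi1, the triose phosphate isomerase, was at 116 ± 42.9 CPM in miR146aKO and 193 ± 120 CPM in wildtype (SD, n = 3 each). Hk3, a hexokinase of myeloid cells, was at 58.9 ± 29.6 CPM in miR146aKO and 144 ± 68.1 CPM in wildtype, and Pfkp, the platelet-type phosphofructokinase, at 63.3 ± 11 CPM in miR146aKO and 133 ± 59.5 CPM in wildtype. Gapdh was at 98.1 ± 88.1 CPM in miR146aKO and 85.9 ± 22.8 CPM in wildtype. None was called (edgeR adjusted p = 0.369 to 0.917), and Gapdh shares 58.4% of its 50-base stretches with other genes.

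Regulators of fructose bisphosphate and of pyruvate dehydrogenase had a median of -0.10, with 8 of 18 on the higher side. Their leading genes by level were Dld, Pfkfb3, Pdha1 and Pdhb, with log2 fold changes of -0.19, -1.06, 0.05 and 0.35 in miR146aKO against wildtype. The pentose phosphate pathway, which branches off after hexokinase, had 6 of 7 on the lower side there (median -0.48) and 6 of 7 on the higher side in miR146aKO_Runx1mut against miR146aKO (median 1.05), where 4 of 7 lay above without overlap. Tkt, a transketolase, was at 583 ± 394 CPM in miR146aKO_Runx1mut and 174 ± 29.4 CPM in miR146aKO (SD, n = 3 each; log2 fold change 1.74, edgeR adjusted p = 0.162). Pgd had a log2 fold change of 1.68, G6pdx of 1.05 and Taldo1 of 0.96 in that comparison. Of 4 tested gluconeogenesis genes (G6pc3, Pck2, Fbp1 and Pcx) 3 were on the lower side in miR146aKO against wildtype.

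HIF and MYC are known regulators of glycolysis genes. Regulators of the hypoxia response had 6 of 12 genes on either side in miR146aKO against wildtype (median -0.10). Myc was at 309.8 ± 199 CPM in miR146aKO and 620.2 ± 275 CPM in wildtype (SD, n = 3 each; log2 fold change -1.002, edgeR adjusted p = 0.381). In miR146aKO_Runx1mut against miR146aKO its log2 fold change was 1.23 (edgeR adjusted p = 0.301). In miR146aKO against wildtype Max, its partner, had a log2 fold change of 0.19, the oxygen sensor Egln1 of -0.22 and Hif1a of 0.29. Hypoxia-induced genes outside glycolysis had 9 of 18 on either side (median -0.0005). Mif, a cytokine gene, was at 91.3 ± 25.5 CPM in miR146aKO and 235 ± 54.9 CPM in wildtype (log2 fold change -1.36, edgeR adjusted p = 0.116). Ndrg1 (-2.29) and Ero1l (-0.38) were also on the lower side, and Bnip3l (0.92), a gene of mitochondrial clearance, was on the higher side. In miR146aKO_Runx1mut against miR146aKO, 14 of 18 of these genes were on the higher side, with a median of 0.81.

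Cell cycle genes lay on the same side as most members in both of these comparisons. All 22 were on the lower side in miR146aKO against wildtype, 5 of them without overlap, with 0 called by edgeR, 10 at an unadjusted p under 0.05 and a median log2 fold change of -1.19. In miR146aKO_Runx1mut against miR146aKO 21 of 22 were on the higher side, 12 without overlap, with 0 called, 12 at an unadjusted p under 0.05 and a median of 1.42. Mki67, a marker of cycling cells, was at 1107 ± 190 CPM in miR146aKO and 2768 ± 1724 CPM in wildtype, and Top2a, a topoisomerase of dividing cells, at 216 ± 55.5 CPM in miR146aKO and 767 ± 433 CPM in wildtype (SD, n = 3 each). Mcm6 and Pcna, genes of DNA replication, had log2 fold changes of -1.28 and -1.23. The cell cycle level of A015 (wildtype) lay within the miR146aKO range, at 5.88 against 5.54 to 6.01 mean log2 CPM. The members' level of A015 did not, at 7.59 against 6.55 to 6.65. That is 1 library, and the part of the cell cycle genes in the members' values was not tested.

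**Figure D5:**
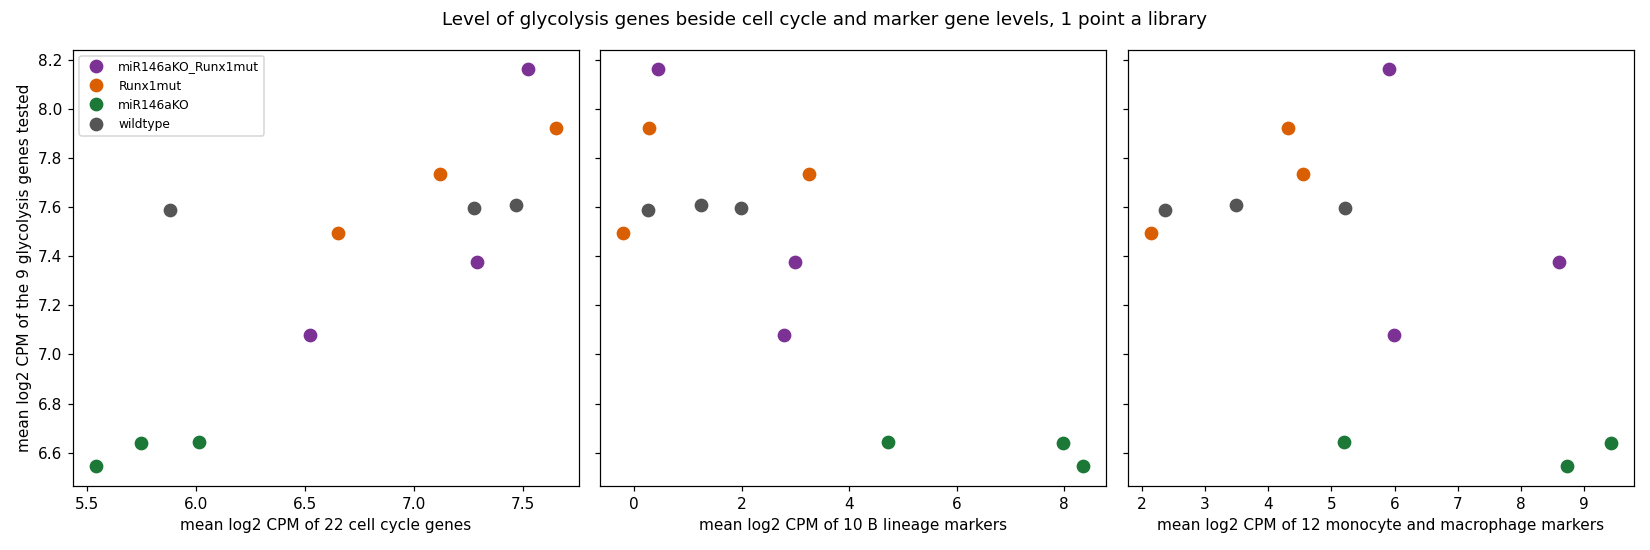
Mean log2 CPM of the 9 tested glycolysis genes (vertical axis) against that of 22 cell cycle genes, 10 B lineage markers and 12 monocyte and macrophage markers (horizontal axes), with 1 point a library. The 3 miR146aKO points lie lowest on the vertical axis in each panel, at 6.55 to 6.65.

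Over the 12 libraries, the members' level had a Spearman correlation of 0.86 with the 4 gluconeogenesis genes, 0.839 with the cell cycle level, 0.699 with the pentose phosphate pathway, 0.615 with hypoxia-induced genes and 0.042 with the hypoxia regulators. It was -0.636 with B lineage, -0.657 with erythroid and -0.524 with monocyte and macrophage markers, and 0.685 with the total count. These are descriptions over libraries that differ in genotype and depth, and the part of depth was not tested. Outside the lists, the genes whose pattern was most like the members' level among 11810 candidates were Stip1 (0.958), a co-chaperone, Mrpl21 (0.944) and Mrpl50 (0.923), proteins of the mitochondrial ribosome, Uck2 (0.937), a uridine kinase, and Kif2c (0.923), a mitotic kinesin. Stip1 was at 71.4, 61.5 and 58.4 CPM in miR146aKO and 124, 173 and 226 CPM in wildtype.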

How the data were processed

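The deposited table holds raw read counts per gene symbol, made by the authors with FastQC 0.11.2, HISAT2 2.0.4 and featureCounts 1.5.2 on mm10, per the submitters' processing notes. RNA was amplified with the NuGEN Ovation v2 kit and libraries were made with Nextera XT, per the labels' protocols. The deposited group names carry no replicate number. In R 4.3.3, edgeR 4.0.16 fitted the counts and gave quasi-likelihood p-values, with TMM factors, its default low-count filter and 1 fit over 12 libraries, and p-values were adjusted over 12744 genes. The common biological coefficient of variation was 0.809, which limits precision. Contrasts were the 5 pairs of genotypes described, the interaction and the 2 averages over backgrounds. Mean log2 CPM uses a prior count of 2. Gene coordinates and transcripts came from GENCODE M21, promoters and the miRNA from RefSeq. Alternatives were RLE factors, no filter, DESeq2 1.42.0, limma-voom 3.58.1, counts without the ribosomal Rn45s (3.91% to 17.8% of counts), a Y-linked covariate, the compared groups alone and leaving out each library. Spearman correlations between libraries showed no copies, being 0.855 to 0.923 within a genotype and 0.841 to 0.937 between genotypes. Amplified reads are not independent molecules. Members and lists were chosen with earlier results of these data known. All members are named, with the 4 genes of highest mean log2 CPM from each other list and the 5 genes most like the members' level.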

Additional observations from a re-analysis of the deposited data

How the results depend on the processing

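No member was called in the fit reported, and members were called under 2 other settings. DESeq2 called 2 in miR146aKO against wildtype, 3 in miR146aKO_Runx1mut against miR146aKO and 2 for the Runx1 mutation over both backgrounds. edgeR with no count filter called 2 in each of the last 2 comparisons. Of all 19210 genes, DESeq2 called 980, 786 and 488 in these 3 comparisons, and edgeR with no filter 549 and 460 in the last 2. No member was called under RLE factors, limma-voom, counts without Rn45s, the Y-linked covariate, the compared groups alone or any of the 12 fits that left out a library. With no library left out, the members' median log2 fold change moved by more than the spread between libraries (0.301) only with the Y-linked covariate. It moved to 0.82 in Runx1mut against wildtype, 0.63 in miR146aKO_Runx1mut against wildtype and 0.17 for the interaction, and the cause was not tested. Some fits that left out 1 library moved the median past that spread as well. Leaving out 1 library gave medians of -1.08 to -0.93 in miR146aKO against wildtype, 0.68 to 1.42 in miR146aKO_Runx1mut against miR146aKO, 0.0437 to 0.643 in Runx1mut against wildtype and -0.13 to 0.64 in miR146aKO_Runx1mut against wildtype. They were -0.43 to 0.18 in miR146aKO_Runx1mut against Runx1mut, 0.53 to 0.99 for the interaction, -0.81 to -0.47 for the loss of miR-146a over both backgrounds and 0.54 to 0.90 for the mutation. Of 1341 values of single members under 19 alternative settings, 54 had the opposite sign to the value reported. The count of all genes called depended far more on the setting. It was 23 in miR146aKO against wildtype, with 0 (Y-linked covariate) to 980 (DESeq2) under the other settings that kept all 12 libraries, 2 in miR146aKO_Runx1mut against miR146aKO (2 to 786), 3 for the interaction (0 to 268), 51 for the loss of miR-146a (1 to 624) and 12 for the mutation (0 to 488). In the comparisons with 0 calls it reached 162 in Runx1mut against wildtype, 256 in miR146aKO_Runx1mut against wildtype and 144 in miR146aKO_Runx1mut against Runx1mut, each with no filter. Leaving out 1 library gave 2 to 135 calls in miR146aKO against wildtype, 0 to 7 in miR146aKO_Runx1mut against miR146aKO, 0 to 2 in Runx1mut against wildtype, 1 to 6 for the interaction, 0 to 193 for the loss of miR-146a and 0 to 24 for the mutation, and 0 each time in the remaining comparisons. No paired analysis was possible because the deposited columns carry no replicate number. Eno1, at 0 to 6 counts a library, had no usable value.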
